A study of Mus musculus with 27 samples.

Results

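Nuclear-encoded respiratory chain genes were described in primary fibroblasts from lungs of C57BL/6 mice of wild-type genotype. The set comprised the protein-coding genes whose symbols mark subunits of the 5 oxidative phosphorylation complexes and that held 270 or more counts summed over 27 RNA-seq libraries. Of the 48440 gene IDs in the count table, 81 met this rule: 37 genes of complex I, 4 of complex II, 8 of complex III, 15 of complex IV and 17 of complex V. Genes were placed in a complex by symbol alone, so Ndufa4 and its relative Ndufa4l2 count with complex I throughout. A further 10 processed pseudogenes matched the symbols without being protein-coding, and 3 protein-coding isoforms fell under the count minimum (Cox7b2 with 30 counts, Cox8b with 144 and Cox8c with 2). All 81 genes passed the filter on low counts among the 18684 genes tested, so no member was lost before testing.

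The respiratory chain sits in the inner mitochondrial membrane, where complexes I and II pass electrons from NADH and succinate to ubiquinone. Complex III hands them to cytochrome c and complex IV to oxygen, and complex V uses the resulting proton gradient to make ATP. Its subunits come from 2 genomes: a core of complexes I, III, IV and V is encoded in mitochondrial DNA, and the other subunits, with all of complex II, are encoded in the nucleus. Several complex IV subunits exist as isoform pairs, one widespread and one restricted to muscle, testis or lung.

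There were 9 groups of 3 libraries, named S1_705 to S27_716 in their titles. KU60019, an inhibitor of the kinase ATM, was given at 3 uM for 15 d or 35 d, each beside cultures given the vehicle DMSO for the same time. In another 4 groups the KU60019 or DMSO was removed after 15 d or 35 d and the cells were harvested after another 20 d. A ninth group received 10 Gy of X-rays, was harvested 10 d later, and served as a positive control for senescence according to the series design. All cultures carried the same wild-type genotype and were kept in 15% serum at 3% oxygen. The labels do not say whether the 3 libraries of a group came from separate animals or cultures, so p-values may measure only technical spread.

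Total counts ran from 20659745 to 50859493 per library (median 31265114), of which the 81 genes held 0.753% to 1.61%. Summed fibroblast markers stood at 12317 to 63488 CPM (counts scaled to each library's TMM-corrected size) in every library, and summed epithelial markers at no more than 4.12 CPM. Endothelial markers reached 68.1 CPM in DMSO 15 d, and Schwann cell markers 103.6 CPM in KU60019 35 d. Smooth muscle and pericyte markers ran from 657.5 CPM in KU60019 35 d to 14126 CPM in DMSO 35 d removed. In 7 DMSO libraries long genes stood higher than in the other 20 (Spearman correlation of a gene's length with its level relative to its mean of 0.23 to 0.34, against -0.23 to 0.11). Within their groups the DMSO 15 d library S2_715 (-0.09) and the DMSO 35 d library S13_705 (0.09) stood apart from the other DMSO libraries. Ribosomal RNA took 0.844% of counts in the DMSO 15 d removed library S7_705, 2.91% and 0.431% in the DMSO 35 d removed libraries S19_705 and S20_715, and 1.60% in the irradiated library S27_716, and less than 0.4% elsewhere. Group comparisons of the members that use the libraries over 0.4% ribosomal RNA are also given without them. Gene-list results are given with all libraries only.

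Summed over the genes of each complex, TPM stood highest for complexes I and IV and lowest for complex II. The sums cover 37, 4, 8, 15 and 17 genes of complexes I to V, so their order is not one of levels per gene. The complex I sum includes Ndufa4 and Ndufa4l2, placed there by symbol. Summed TPM (the length-scaled unit the authors deposited) ran from 5362 to 9047 for complex I, from 3495 to 6543 for complex IV, from 2895 to 4923 for complex V, from 1284 to 2620 for complex III and from 216.1 to 520.0 for complex II over the 27 libraries. The most abundant member per length was Ndufa4l2, a hypoxia-inducible relative of the subunit gene Ndufa4, at a mean of 1161 TPM (556.2 to 1531 over libraries). It was followed by Cox8a (901.1 TPM) and Cox4i1 (883.4 TPM), both complex IV subunits expressed in most tissues, whose ranges over libraries overlapped that of Ndufa4l2. The lowest were the muscle-type isoform Cox7a1 (5.77 TPM), Atp5g1 (7.19 TPM), 1 of 3 genes for the c-ring subunit of ATP synthase, and Ndufb2 (8.20 TPM), an accessory subunit of complex I.

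The members are mostly short genes. Their exon length had a median of 1569 bases (419 to 8086), with 20 under 1 kb, 32 from 1 to 2 kb, 19 from 2 to 4 kb and 10 over 4 kb. Exons of 29 members overlap those of another gene. No source used here states whether reads were counted by strand, so reads of such pairs may not be separable.

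Promoters, taken from RefSeq on GRCm38.p6, were matched for 66 of the 81 genes, searched on both strands from 250 bases before to 50 after the annotated start. The NRF1 core (GCGC, then A and any base, then GCGC), named for nuclear respiratory factor 1, lay in 17 of 66 (25.8%) against 5.19% of 27025 promoters. The ETS core CCGGAAG lay in 16 (24.2% against 9.93%) and the YY1 core AAGATGGCG in 7 (10.6% against 1.64%). The CCAAT box was found in 29 (43.9% against 41.1%) and the E-box CACGTG in 6 (9.09% against 8.09%). Complex V had the NRF1 core in 6 of 15 promoters, complex I in 7 of 32, complex II in 2 of 3, complex III in 1 of 5 and complex IV in 1 of 11. A match is a run of letters and not evidence of binding. Members without a matched promoter included Atp5a1, Atp5mpl, Cox4i1, Cox4i2, Cox6a2, Cox6c, Ndufa2, Ndufa4l2, Ndufb9, Ndufs1, Sdhc, Uqcrb, Uqcrc2 and Uqcrq.

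The 250 bases before the start are shown for complex IV isoforms with differing patterns and for Atp5g1. Of these, Cox6a1 and Cox7a2 were called in 5 of 7 group comparisons, Cox6b2, Cox7a1 and Atp5g1 in 4, and Cox6b1, shown as the partner of Cox6b2, in 2. Capitals mark the letters of the NRF1, ETS, CCAAT and E-box motifs on either strand, and each sequence runs 5′ to 3′ on the gene's own strand. Cox6a1 (chr5:115348959-115349208, minus strand) and Cox6b1 (chr7:30626115-30626364, minus strand) encode widespread subunits. Cox6b2 (chr7:4753095-4753344, minus strand) encodes the testis-type partner of Cox6b1. Cox7a1 (chr7:30183921-30184170, plus strand) encodes the muscle-type partner of Cox7a2 (chr9:79759854-79760103, minus strand). Atp5g1 lies at chr11:96075632-96075881 (minus strand).
Cox6a1: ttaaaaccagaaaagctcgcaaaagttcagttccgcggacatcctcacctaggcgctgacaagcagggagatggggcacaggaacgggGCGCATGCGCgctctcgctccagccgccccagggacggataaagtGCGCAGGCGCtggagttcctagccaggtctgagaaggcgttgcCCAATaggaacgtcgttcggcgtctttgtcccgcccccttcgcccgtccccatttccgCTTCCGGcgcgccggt
Cox6b1: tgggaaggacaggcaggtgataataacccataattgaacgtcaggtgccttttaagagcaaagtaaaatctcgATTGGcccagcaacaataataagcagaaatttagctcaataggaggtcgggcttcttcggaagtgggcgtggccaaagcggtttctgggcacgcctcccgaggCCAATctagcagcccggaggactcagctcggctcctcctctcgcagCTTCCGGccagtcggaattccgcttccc
Cox6b2: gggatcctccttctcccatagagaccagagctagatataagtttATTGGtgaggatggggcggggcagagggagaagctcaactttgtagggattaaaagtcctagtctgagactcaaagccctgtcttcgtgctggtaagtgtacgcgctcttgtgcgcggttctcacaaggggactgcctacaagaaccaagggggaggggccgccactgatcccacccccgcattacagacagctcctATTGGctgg
Cox7a1: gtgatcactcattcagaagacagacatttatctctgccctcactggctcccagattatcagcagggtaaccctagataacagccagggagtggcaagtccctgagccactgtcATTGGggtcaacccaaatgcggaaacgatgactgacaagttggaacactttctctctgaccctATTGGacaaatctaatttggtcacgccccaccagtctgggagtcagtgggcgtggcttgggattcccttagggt
Cox7a2: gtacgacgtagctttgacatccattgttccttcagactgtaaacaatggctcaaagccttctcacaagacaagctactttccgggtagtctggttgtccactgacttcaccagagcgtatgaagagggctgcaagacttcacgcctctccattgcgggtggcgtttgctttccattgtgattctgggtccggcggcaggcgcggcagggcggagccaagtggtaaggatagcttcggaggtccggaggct
Atp5g1: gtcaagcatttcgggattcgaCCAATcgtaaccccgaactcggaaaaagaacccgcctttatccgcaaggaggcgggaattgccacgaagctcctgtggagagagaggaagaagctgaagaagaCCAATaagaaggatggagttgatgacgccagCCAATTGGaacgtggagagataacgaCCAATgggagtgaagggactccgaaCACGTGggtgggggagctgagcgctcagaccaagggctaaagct
The Cox6a1 window held 2 NRF1 cores, 1 ETS core and 1 CCAAT box, and that of Cox6b1 1 ETS core and 2 CCAAT boxes. Cox6b2 and Cox7a1 held 2 CCAAT boxes each and no other motif searched. Atp5g1 held 5 CCAAT boxes and 1 E-box, and Cox7a2 none of the 5 motifs.

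**Figure D1:**
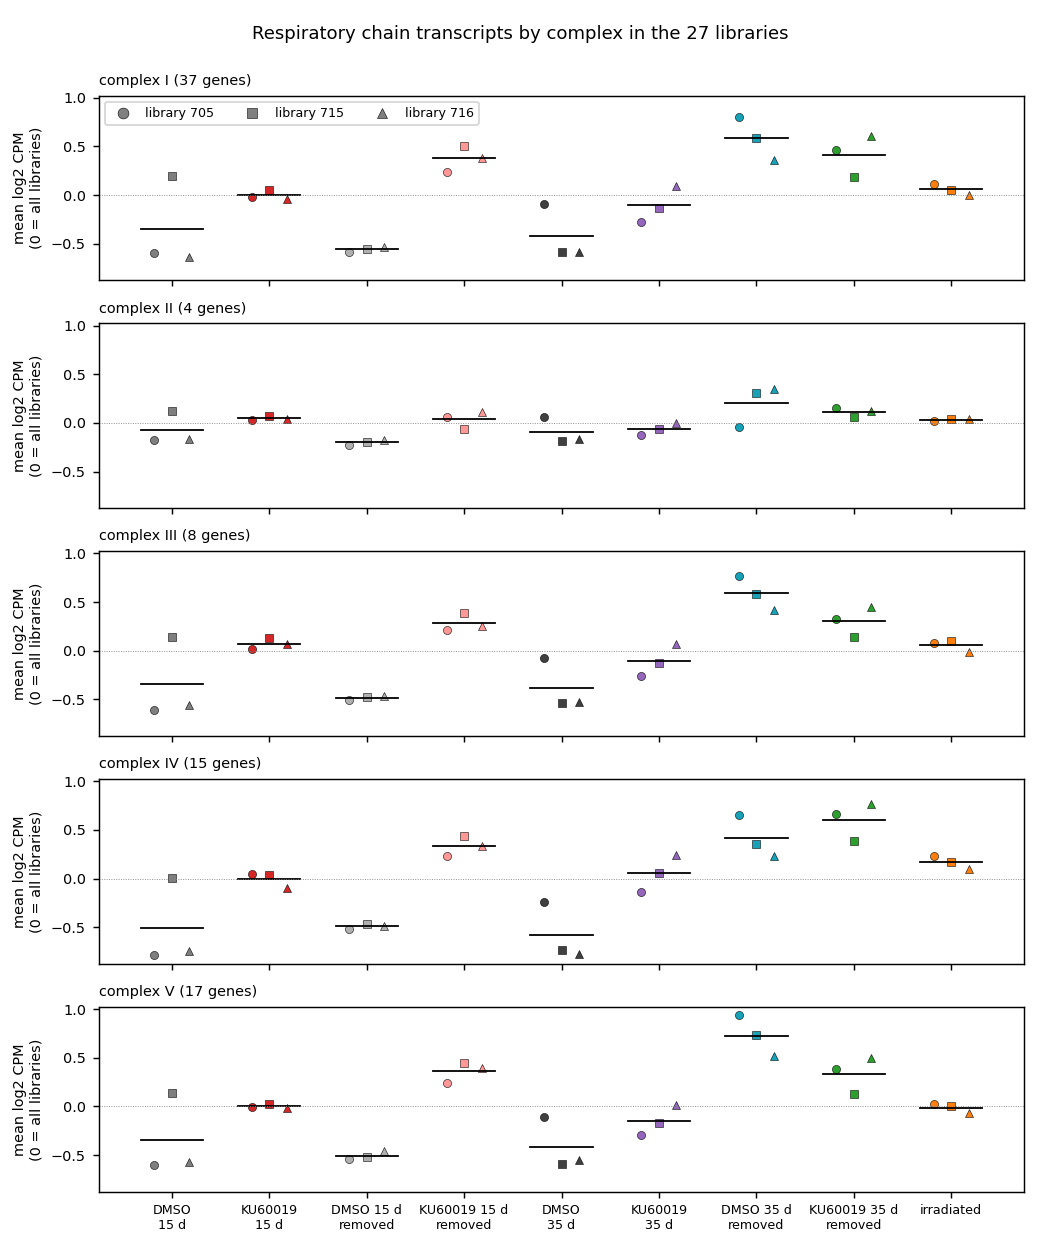
Mean log2 CPM of the genes of each complex in the 27 libraries (y axis, in log2 units relative to the mean over all libraries), by group (x axis) with one marker shape per library number. The same 7 DMSO libraries are the lowest in each complex, and DMSO 15 d S2_715 lies above the other libraries of its group.

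The level of the 81 genes as a group separated 7 DMSO libraries from the other 20. Their mean log2 CPM, set to 0 over all libraries, was -0.61, 0.14 and -0.61 in DMSO 15 d (S1_705, S2_715 and S3_716, with libraries in the order of their names here and below) and -0.12, -0.59 and -0.58 in DMSO 35 d. It was -0.54, -0.50 and -0.48 in DMSO 15 d removed, and 0.76, 0.56 and 0.37 in DMSO 35 d removed. KU60019 libraries stood at 0.00, 0.05 and -0.03 after 15 d and at -0.24, -0.10 and 0.10 after 35 d. After removal they stood at 0.23, 0.44 and 0.35 (15 d) and at 0.45, 0.20 and 0.57 (35 d), and irradiated libraries at 0.11, 0.07 and 0.01. The highest value of all was that of DMSO 35 d removed S19_705, the library with the most ribosomal RNA. In each of the groups DMSO 15 d and DMSO 35 d, the library without the long-gene trend was the one whose respiratory chain level stood apart.

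The mRNAs of ribosomal proteins, also encoded by short genes, moved beside those of the members in DMSO 15 d and DMSO 35 d removed. In DMSO 15 d the mean log2 CPM of 94 cytosolic ribosomal protein genes was -0.66, 0.14 and -0.66, and that of 77 mitochondrial ribosomal protein genes -0.56, 0.07 and -0.55. In DMSO 35 d removed they were 1.03, 0.81 and 0.51, and 0.72, 0.62 and 0.49. In irradiated cells the cytosolic set parted from the members, at -0.09, -0.17 and -0.29 against 0.11, 0.07 and 0.01. The mitochondrial set stood at 0.11, 0.10 and 0.05 there. The part of the ribosomal protein genes in the results was not tested.

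**Figure D2:**
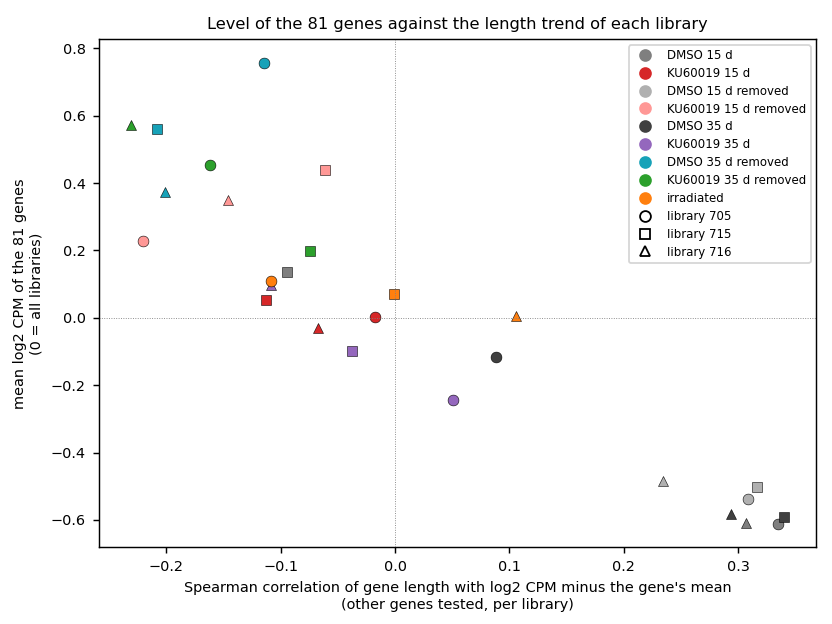
Mean log2 CPM of the 81 genes (y axis, relative to the mean over all libraries) against each library's Spearman correlation of gene length with relative level over the other genes (x axis), one point per library. The 7 libraries over 0.2 are all DMSO libraries and lie between -0.61 and -0.48.

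The length trend and the respiratory chain level were compared across libraries. The 27 libraries fall into 2 clusters on the length measure, so no pooled correlation was computed. Within the 20 libraries from -0.23 to 0.11, Pearson's r was -0.71 (permutation p = 0.00043, two-sided, adjusted p = 0.00086 over 4 tests) and Spearman's rho -0.78 (permutation p = 6e-05, adjusted p = 0.00024). Without the 2 libraries farthest from the median, r was -0.70, so lower long genes went with higher respiratory chain genes there. Within the 7 libraries from 0.23 to 0.34, r was -0.65 (exact permutation p = 0.0931, adjusted p = 0.124) and rho -0.50 (exact p = 0.267), and r without 2 libraries was -0.12, so that value rests on those 2. The 20 libraries span 8 groups, so these points differ in treatment as well as in length trend. The permutations ignored the groups and treated libraries of 1 group as independent points, so the p-values are likely too small. The 2 clusters were also taken from the same data, so the correlations are best read as descriptions.

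Across genes, the Spearman correlation of fold change with length was computed for the members and for the other genes. It was -0.28 for the members and -0.21 for the others with KU60019 at 15 d, -0.53 and -0.24 at 35 d, -0.20 and -0.23 for KU60019 15 d removed, and -0.38 and -0.18 for irradiation. For KU60019 35 d removed the signs were opposite (-0.18 and 0.09). Genes are not independent replicates, so these values are descriptions. Each comparison below was also fitted with the length trend of each library removed.

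**Figure D3:**
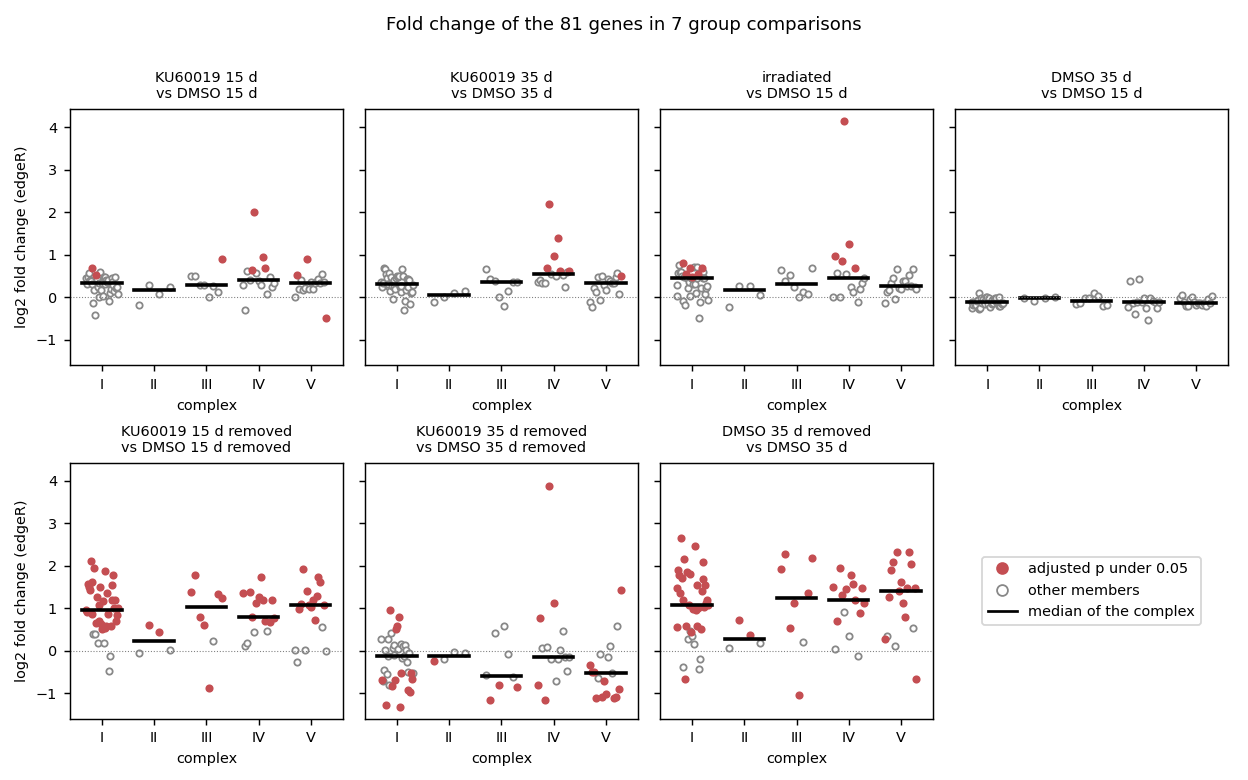
Log2 fold change (y axis) of the 81 genes by complex (x axis) in 7 group comparisons, with genes at adjusted p under 0.05 filled and the median of each complex as a line. Most genes of complexes I, III, IV and V lie above 0 in KU60019 15 d removed and in DMSO 35 d removed, and the 5 medians of KU60019 35 d removed lie below 0.

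After 15 d of KU60019, 9 of the 81 genes were higher than in DMSO 15 d and 1 was lower by edgeR at an adjusted p under 0.05. Over all genes tested 13.2% were called higher and 17.1% lower. The median log2 fold change of the members was 0.33, against -0.02 over all genes. At an unadjusted p under 0.05 it was 18 higher and 1 lower, and DESeq2 called 11 and 1 (2680 and 3520 over all genes). By complex, 2 of 37 genes rose in complex I, 0 of 4 in complex II (0 also at an unadjusted p under 0.05), 1 of 8 in complex III, 4 of 15 in complex IV and 2 of 17 in complex V. The gene that fell was Atp5s, a factor associated with ATP synthase (current name Dmac2l), by 0.50 ± 0.16 on the log2 scale (adjusted p = 0.0189).

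The largest rise was that of Cox6a2, the muscle-type isoform of subunit 6A of cytochrome c oxidase (ENSMUSG00000030785.8, chromosome 7, 128205435 to 128206387, minus strand, GRCm38). Its CPM were 0.40, 1.11 and 0.76 in DMSO 15 d and 2.88, 3.49 and 2.69 in KU60019 15 d, and the groups did not overlap. The log2 fold change was 2.01 ± 0.42 (SE; adjusted p = 0.000953), and the call held in 6 of 6 fits that left out 1 library. Its exons overlap those of Itgad on the opposite strand, which held 0 counts in both groups. Of the 7 skeletal and heart muscle markers listed, Ckm, Myod1 and Myh7 were at or under 3 counts summed over the group in both, and the list summed to 4.27 to 8.92 CPM in DMSO 15 d and 4.06 to 5.55 CPM in KU60019 15 d.

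The widespread partner Cox6a1 (ENSMUSG00000041697.8, chromosome 5, 115345642 to 115348981, minus strand) also rose. It stood at 151.6, 293.0 and 166.6 CPM in DMSO 15 d and at 321.8, 332.1 and 301.7 CPM in KU60019 15 d. Every treated library was above every control, with S2_715 close to the treated range (log2 fold change 0.64 ± 0.20, adjusted p = 0.0186). Its adjusted p was 0.068 with the length trend removed, so the call of Cox6a1 was lost there.

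Cox7a2, the widespread isoform of subunit 7A, stood at 74.0, 113.1 and 77.8 CPM with DMSO and at 138.6, 141.2 and 144.0 CPM with KU60019. It rose by 0.68 ± 0.16 on the log2 scale (adjusted p = 0.00316), and Ndufa4, annotated with complex I and since assigned to complex IV, by 0.68 ± 0.18 (adjusted p = 0.00591). Both calls held in 6 of 6 fits without 1 library. Its muscle-type partner Cox7a1 rose by 0.95 ± 0.34 (adjusted p = 0.0357, and 0.11 with the length trend removed) from a low level of 0.70 to 1.72 CPM in DMSO 15 d.

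Of the ATP synthase genes, Atp5g1 (ENSMUSG00000006057.15, chromosome 11, 96068852 to 96075670, minus strand) rose by 0.91 ± 0.27 (adjusted p = 0.0125) and Atp5b, the catalytic beta subunit of the F1 head, by 0.53 ± 0.17 (adjusted p = 0.0226). Uqcrq, a small subunit of complex III, rose by 0.90 ± 0.33 (adjusted p = 0.0442, and 0.055 with the length trend removed), and Ndufa7 of complex I by 0.51 ± 0.17 (adjusted p = 0.0285). Of the nuclear core subunits of complex I, which form its catalytic part, Ndufs1, Ndufs3, Ndufs7, Ndufs8, Ndufv1 and Ndufv2 did not pass, and their log2 fold changes ran from -0.10 to 0.47. Those of the 4 complex II genes ran from -0.19 (Sdha) to 0.29 (Sdhb), and none passed.

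The count moved with each control library. Without DMSO 15 d S2_715, whose length trend and respiratory chain level stood apart from its group, 48 members changed. Without DMSO 15 d S1_705 it was 3 and without DMSO 15 d S3_716 it was 5. When the length trend was removed, 6 rises and 1 fall were called (13.9% and 15.7% over all genes). With the replicate number as a block, 9 rose and 1 fell. Here and below, counts from fits without 1 library, with a block or at an unadjusted p stand without the share over all genes. They show how the count of members moved, and not how the members compared with all genes. Endothelial markers were lower in 5 of 6 (3.80 to 5.43 CPM summed, against 22.7 to 68.1 CPM) and fibroblast markers lower in 5 of 11 and higher in 1, whose part was not tested.

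After 35 d of KU60019, 7 members were higher than in DMSO 35 d and 0 were lower, 6 of them in complex IV and 1 in complex V. Over all genes 9.7% were called higher and 8.4% lower. The median of the members was 0.35. DESeq2 called 12 higher and 0 lower (2281 and 1752 over all genes), and at an unadjusted p under 0.05 edgeR had 20 higher and 0 lower. Of the 49 genes of complexes I, II and III none was called, with 9, 0 and 1 higher at an unadjusted p under 0.05, and the same 6 core subunits of complex I ran from -0.31 (Ndufs1) to 0.41 (Ndufs7).

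Cox6a2 again led, at 1.23, 1.04 and 0.80 CPM with DMSO and 3.42, 6.13 and 4.30 CPM with KU60019 (log2 fold change 2.19 ± 0.41, adjusted p = 0.000611). The groups did not overlap, and the call held in 6 of 6 fits without 1 library. Cox7a1 stood at 1.23, 0.60 and 0.71 CPM with DMSO and at 1.78, 2.26 and 2.53 CPM with KU60019 (1.38 ± 0.35, adjusted p = 0.0075). Cox6b2, the testis-type isoform of subunit 6B, rose from 27.6, 20.67 and 16.6 CPM to 37.0, 40.7 and 49.0 CPM (0.97 ± 0.28, adjusted p = 0.019). Muscle markers summed to 10.3 to 14.3 CPM with KU60019 and 6.31 to 8.27 CPM with DMSO, with 1 of 3 tested higher and Ckm, Myod1 and Myh7 at or under 3 counts in both groups. Schwann cell markers were higher in 4 of 5 tested (11.4 to 103.6 CPM summed, against 3.35 to 5.32 CPM) and fibroblast markers lower in 6 of 11 and higher in 2. Adipocyte markers summed to 42.7 to 82.3 CPM against 8.83 to 22.7 CPM (1 of 1 tested higher). Macrophage markers summed to 56.2 to 77.8 CPM against 18.2 to 29.5 CPM (2 of 5 tested higher, 0 lower). The part of these markers was not tested. The 3 genes above are 3 of the 4 restricted isoforms of complex IV, and the other, the lung-type Cox4i2, did not pass (0.41 ± 0.30, adjusted p = 0.365).

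The 3 other complex IV genes called were widespread ones. Cox6a1 rose by 0.69 ± 0.20 (adjusted p = 0.0203), Cox8a by 0.61 ± 0.20 (adjusted p = 0.0408) and Cox7a2 by 0.60 ± 0.16 (adjusted p = 0.0119). Atp5s rose by 0.49 ± 0.16 (adjusted p = 0.0332), against its fall at 15 d. The difference between the KU60019 effects at 35 d and at 15 d was itself called for 2 members: Atp5s (0.99 on the log2 scale, larger at 35 d) and Atp5b (-0.75, smaller at 35 d). Over all genes, 7.11% and 4.58% were called in these directions.

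The count at 35 d depended on the scaling, on few libraries and on the length trend. On TPM the median of all genes moved to -0.33, and 3 members were called higher and 5 lower (4.04% and 26.1% over all genes; median 0.01, which is 0.34 above all genes). Without DMSO 35 d S13_705, 17 members changed, without DMSO 35 d S14_715 or S15_716 only 1, and without KU60019 35 d S18_716 it was 2. Removal of the length trend left 3 rises and 0 falls (9.53% and 7.33% over all genes), and Cox6a1 (adjusted p = 0.079), Cox6b2 (0.064), Cox8a (0.24) and Atp5s (0.1) were no longer called. Leaving out both DMSO 15 d S2_715 and DMSO 35 d S13_705, an alternative added after the data were seen, gave 51 rises and 1 fall at 15 d (median 0.69, 17.6% and 19.9% over all genes) and 29 rises and 0 falls at 35 d (median 0.59, 12.8% and 10.9% over all genes).

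Both lengths of treatment called Cox6a1, Cox6a2, Cox7a1 and Cox7a2 higher. These 4 made up 44.4% of the rises at 15 d and 57.1% of those at 35 d, in comparisons that share no library but come from the same model. No share over all genes stands beside this overlap, so it does not compare the members with all genes. With the length trend removed, Cox6a1 was no longer called at 15 d or 35 d, and Cox7a1 was no longer called at 15 d. Cox6a2 and Cox7a2 kept their calls at both times.

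**Figure D4:**
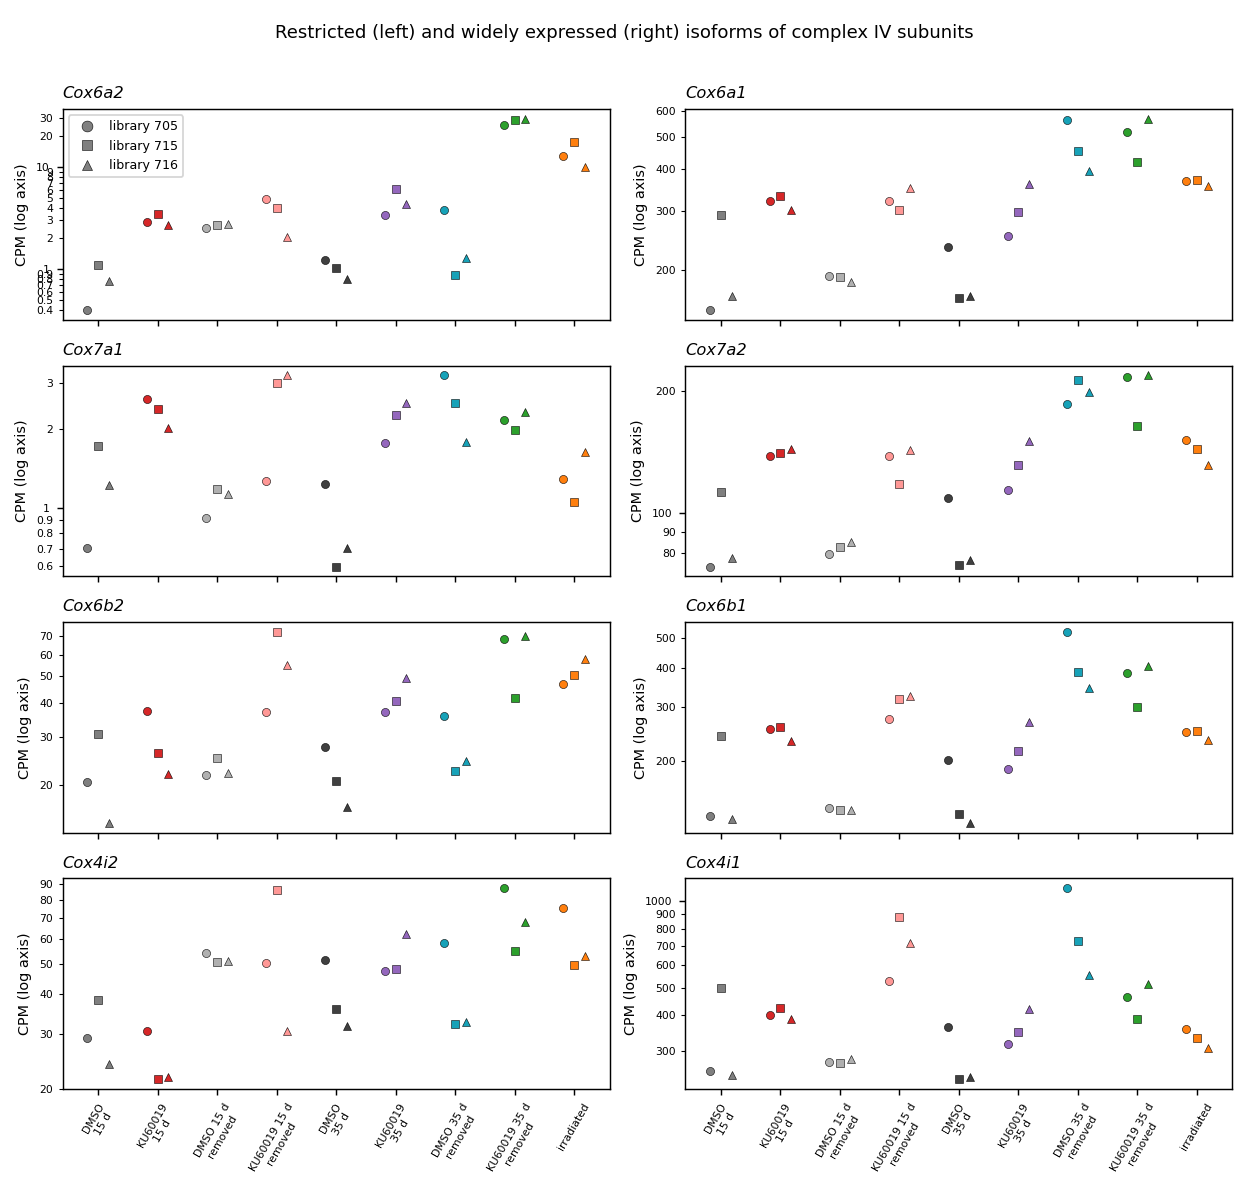
CPM (log axis) of restricted isoforms (left) and their widespread partners (right) of complex IV subunits in the 27 libraries, by group, 1 point per library. Cox6a2 stands at 25.7 to 29.8 CPM in KU60019 35 d removed and at 9.94 to 17.5 CPM in irradiated cells, above every other library.

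The irradiated cultures were harvested 10 d after X-rays, and their control here, DMSO 15 d, had 15 d of vehicle. The labels give no vehicle course for the irradiated cultures, so irradiation, vehicle and culture time cannot be told apart. After irradiation, 11 members were higher than in DMSO 15 d and 0 were lower, 6 in complex I and 5 in complex IV. Over all genes 14.1% were called higher and 16.8% lower, and the median of the members was 0.32. At an unadjusted p under 0.05 it was 25 and 2, and DESeq2 called 14 and 2 (2924 and 3394 over all genes). Cox6a2 stood at 12.7, 17.5 and 9.94 CPM, above every DMSO library (log2 fold change 4.15 ± 0.43, adjusted p = 3.56e-07). The muscle markers summed to 11.9 to 16.8 CPM in these libraries against 4.27 to 8.92 CPM in DMSO 15 d, with 2 of 3 tested higher (median 1.58). Among them Tnnt3, a fast skeletal muscle troponin gene, stood at 9.71 to 15.1 CPM against 3.14 to 5.38 CPM, while Ckm, Myod1 and Myh7 were at or under 3 counts over each group. Proliferation markers were lower in 5 of 5 (18.9 to 25.2 CPM summed, against 106 to 164 CPM) and endothelial markers in 6 of 6. Smooth muscle and pericyte markers were higher in 4 of 6 (7538 to 9250 CPM summed, against 1745 to 2743 CPM). Of the macrophage markers 1 of 5 tested was higher and 0 lower, and of the adipocyte markers 0 of 1 tested was called. The part of these markers in the irradiation result was not tested. Fewer cells of a type and less RNA per cell cannot be told apart in such bulk samples.

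Among the other restricted isoforms, Cox6b2 rose by 1.25 ± 0.28 (adjusted p = 0.0019) and Cox4i2 by 0.97 ± 0.30 (adjusted p = 0.0181, and 0.063 with the length trend removed). Cox7a1 did not pass (0.12 ± 0.34, adjusted p = 0.815). Of the widespread subunits, Cox6a1 rose by 0.85 ± 0.20 (adjusted p = 0.00291) and Cox7a2 by 0.69 ± 0.16 (adjusted p = 0.0026). Of the genes counted with complex I, Ndufa4 rose by 0.80 ± 0.18 (adjusted p = 0.00156), and the accessory subunits Ndufs4, Ndufb2, Ndufa7, Ndufc2 and Ndufb4 by 0.48 to 0.69.

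Leaving out DMSO 15 d S2_715 moved the irradiation count to 51, and leaving out DMSO 15 d S1_705 or S3_716 to 5. It was 6 without irradiated S25_705 and 7 without irradiated S26_715. The count was 11 rises and 0 falls with the length trend removed (14.2% and 16.7% over all genes). Without the libraries over 0.4% ribosomal RNA, the irradiated group kept 2 libraries. In that fit 14 members rose and 1 fell (median 0.36, 13.3% and 14.9% over all genes). This comparison and that of KU60019 at 15 d use the same 3 DMSO libraries, so their shared calls are not independent.

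After KU60019 had been given for 15 d and removed, most of the chain was higher than in the DMSO cultures treated alike. Of the 81 genes, 62 were called higher and 1 lower (24.7% and 24% over all genes), with a median of 0.96 against -0.01 over all genes. Rises numbered 31 of 37 in complex I, 2 of 4 in complex II, 6 of 8 in complex III, 11 of 15 in complex IV and 12 of 17 in complex V. The CPM of 63 members did not overlap between the groups with the treated libraries higher, and those of 3 with them lower, against 26.5% and 30.3% of all genes. Fibroblast markers were lower in 8 of 11 (23713 to 31358 CPM summed, against 55667 to 63488 CPM). Schwann cell markers were higher in 4 of 5 tested (8.22 to 71.0 CPM summed, against 3.81 to 5.97 CPM), and endothelial markers in 2 of 6. The part of these markers was not tested.

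Complex I accessory subunits led the rises. Ndufa2 stood at 118.4, 123.3 and 122.6 CPM in DMSO 15 d removed and at 316.2, 882.7 and 381.8 CPM in KU60019 15 d removed (log2 fold change 2.12 ± 0.47, adjusted p = 0.00124). Ndufa5 stood at 26.9, 33.5 and 30.4 CPM against 80.6, 171.4 and 96.8 CPM (1.94 ± 0.35, adjusted p = 0.00032). In both genes the treated library S11_715 was the highest, and the control libraries lay close together. Ndufb7 rose by 1.87 ± 0.39 and Ndufs6 by 1.78 ± 0.39.

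Not all core subunits of complex I rose. Ndufs8, an iron-sulphur subunit, rose from 33.8, 34.4 and 34.2 CPM to 62.6, 91.5 and 79.7 CPM (1.19 ± 0.20, adjusted p = 0.000197), Ndufv2 by 0.84 ± 0.18 and the NADH-binding subunit gene Ndufv1 by 0.71 ± 0.17. Ndufs1 had a log2 fold change of -0.49 ± 0.22 (adjusted p = 0.0659) and did not pass, with treated libraries at 46.2, 26.8 and 40.7 CPM below controls at 52.1 to 54.8 CPM. Ndufs7 rose by 1.00 ± 0.26 and Ndufs3 by 0.59 ± 0.14. Of the other genes counted with complex I, which are accessory subunits and Ndufa4 and Ndufa4l2, 26 of 30 rose.

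In complex II the iron-sulphur subunit Sdhb (0.61 ± 0.16, adjusted p = 0.00401) and the membrane anchor Sdhc (0.44 ± 0.11, adjusted p = 0.00362) rose, while the flavoprotein Sdha (-0.05 ± 0.09) and the other anchor Sdhd (0.02 ± 0.25) did not pass. In complex III the small subunits Uqcr11 (1.78 ± 0.38) and Uqcrq (1.25 ± 0.33) and the core subunit Uqcrc1 (0.60 ± 0.19) rose. The second core subunit, Uqcrc2 (ENSMUSG00000030884.12, chromosome 7, 120635176 to 120659524, plus strand), fell by 0.88 ± 0.34 (adjusted p = 0.0383). Its treated libraries stood at 67.3, 30.5 and 55.0 CPM, all below controls at 93.1 to 95.1 CPM, and the call held in 1 of 6 fits without 1 library.

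In complex IV, Cox6c rose by 1.73 ± 0.30, Cox5b by 1.38 ± 0.29, Cox4i1 by 1.35 ± 0.26 and Cox6b1 by 1.13 ± 0.22. Cox6b2 rose by 1.26 ± 0.28 (adjusted p = 0.00125) and Cox7a1 by 1.20 ± 0.34 (adjusted p = 0.00665, and 0.06 with the length trend removed). Cox6a2, at 2.55, 2.73 and 2.80 CPM in controls and 4.86, 3.94 and 2.05 CPM after treatment, overlapped and did not pass (0.43 ± 0.38, adjusted p = 0.354). Cox8b, a heart and muscle isoform of subunit 8 left out by the count minimum, held 12, 46 and 53 counts in these treated libraries and 0 to 4 counts in each of the other 24. It was below the filter and has no test. Muscle markers summed to 14.7 to 35.0 CPM in the treated libraries and 9.92 to 10.7 CPM in controls, with 2 of 3 tested higher and Ckm, Myod1 and Myh7 at or under 3 counts in both groups.

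In ATP synthase all 3 c-ring genes rose: Atp5g1 by 1.40 ± 0.27, Atp5g2 by 1.08 ± 0.21 and Atp5g3 by 1.02 ± 0.19. Of the F1 head, Atp5e (1.93 ± 0.42, adjusted p = 0.000959), Atp5d and the shaft subunit Atp5c1 (0.99 ± 0.19) rose. The alpha and beta subunits did not: Atp5a1 had a log2 fold change of 0.01 ± 0.09 and Atp5b of -0.27 ± 0.17 (adjusted p = 0.198).

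On TPM, where the median of all genes moved to -0.47, 40 members were higher and 8 lower (median 0.35, 9.88% and 51.1% over all genes), and Sdhc turned to -0.13. Of the 5 treatment comparisons, this one had the narrowest range when single libraries were left out. Leaving out each in turn gave 60 to 63 changed members, and 58 rises and 1 fall were called with the length trend removed (median 0.77, 25.8% and 20.8% over all genes). Without the libraries over 0.4% ribosomal RNA, DMSO 15 d removed kept 2 libraries. In that fit 62 members rose and 2 fell (median 0.95, 21.5% and 22.1% over all genes). Within length classes the members also lay above the other genes, with medians of 0.92 against 0.60 under 1 kb, 1.09 against 0.29 from 1 to 2 kb, 0.61 against 0.07 from 2 to 4 kb and 0.88 against -0.19 over 4 kb. Proliferation markers (5 genes) summed to 90.3 to 115 CPM in the treated libraries and 88.0 to 99.3 CPM in controls, with 1 of 5 called higher.

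The difference between the KU60019 effect after removal and before it was tested for the 15 d treatment, and 17 members had a larger effect after removal and 2 a smaller one (14% and 11.4% over all genes). They included Ndufa5 (1.77 ± 0.49, adjusted p = 0.012), Atp5e (1.76 ± 0.57, adjusted p = 0.0288) and Cox6c (1.45 ± 0.41, adjusted p = 0.015) on the positive side, and Atp5b (-0.79 ± 0.24, adjusted p = 0.0201) and Cox6a2 (-1.57 ± 0.56, adjusted p = 0.0435) on the negative side. The count ran from 3 to 35 over fits that left out 1 library, and without DMSO 15 d S2_715 and DMSO 35 d S13_705 it was 3 and 2.

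DMSO cultures showed a change of their own after the longer course. DMSO 35 d removed had 61 members higher and 3 lower than DMSO 35 d (31.5% and 32.6% over all genes), with a median of 1.12. Between DMSO 15 d and DMSO 35 d, edgeR called 0 of the 81 genes (0.455% higher and 1.11% lower over all genes), with 0 at an unadjusted p under 0.05 and 0 by DESeq2. The removed cultures also differed in the mRNAs of proliferation markers, which summed to 985 to 1249 CPM against 75.9 to 105 CPM, with 5 of 5 higher. Fibroblast markers were lower in 9 of 11 and higher in 2, and smooth muscle and pericyte markers higher in 4 of 6. Whether the respiratory chain followed any of these was not tested.

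The rises again spanned the complexes, with 29 of 37 genes of complex I, 2 of 4 of complex II, 6 of 8 of complex III, 11 of 15 of complex IV and 13 of 17 of complex V. Atp5g1 stood at 14.3, 9.65 and 11.8 CPM in DMSO 35 d and at 95.2, 48.9 and 36.2 CPM after removal (2.33 ± 0.27, adjusted p = 3.59e-07). Ndufa2 stood at 189.5, 118.9 and 112.2 CPM and then at 1795, 533.2 and 331.8 CPM (2.66 ± 0.48, adjusted p = 6.89e-05). In both genes library S19_705, with the most ribosomal RNA, was the highest, and no removed library overlapped the controls. Ndufb7 rose by 2.47 ± 0.40, Atp5k by 2.33 ± 0.37, Uqcr11 by 2.29 ± 0.39 and Uqcrq by 2.19 ± 0.34.

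Uqcrc2 (-1.05 ± 0.35, adjusted p = 0.0115), Ndufa6, an accessory subunit of complex I (-0.66 ± 0.27, adjusted p = 0.0344), and Atp5s (-0.66 ± 0.16, adjusted p = 0.00127) fell. Uqcrc2 stood at 90.2, 95.4 and 89.8 CPM before and 13.7, 41.5 and 77.2 CPM after removal, so that S19_705 was again the extreme library. Without the 4 libraries over 0.4% ribosomal RNA, DMSO 35 d removed was left with 1 library, assumed to vary like the other groups, and 44 members rose and 1 fell (median 0.83, 19.2% and 18.1% over all genes). The fit without the length trend called 59 rises and 4 falls (33.5% and 28.8% over all genes). On TPM 38 rose and 17 fell (median 0.25, 13.1% and 60.1% over all genes), while the median of all genes moved to -0.67, and with library size alone 52 rose and 5 fell (23.5% and 39.1% over all genes).

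Of the genes called higher, 59 were shared with KU60019 15 d removed against its control, which is 95.2% of the 62 there and 96.7% of the 61 here. Over all genes tested 3295 were called higher in both, which is 71.4% and 56% of those called higher in each. Uqcrc2 was called lower in both. The pair shares no library, and the length trend of the other genes was alike in both (-0.23 and -0.21).

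KU60019 35 d removed was compared with DMSO 35 d removed, so these 3 libraries are shared with the comparison just described. Of the 81 genes, 26 were lower and 8 higher (24.5% and 24.4% over all genes), with a median of -0.20. Falls numbered 10 of 37 in complex I, 1 of 4 in complex II, 3 of 8 in complex III, 2 of 15 in complex IV and 10 of 17 in complex V. Rises numbered 4 in complex I, 3 in complex IV and 1 in complex V. All DMSO 35 d removed libraries had high proliferation markers, which summed to 34.3 to 42.7 CPM in KU60019 35 d removed (5 of 5 lower). Schwann cell markers were higher in 4 of 5 tested and smooth muscle and pericyte markers lower in 5 of 6, whose part was not tested.

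The c-ring genes of ATP synthase were all lower than in DMSO 35 d removed, with Atp5g1 by 1.08 ± 0.26 (adjusted p = 0.00175), Atp5g3 by 1.02 ± 0.19 (adjusted p = 0.00016) and Atp5g2 by 0.71 ± 0.21 (adjusted p = 0.0076). In these controls the c-ring genes had themselves risen over DMSO 35 d, by 1.42 to 2.33. Atp5g3 stood at 816.7, 652.0 and 514.3 CPM with DMSO and at 333.1, 289.3 and 354.2 CPM with KU60019, without overlap. Before removal it stood lower, at 216.1, 236.7 and 264.8 CPM in KU60019 35 d and at 264.0, 186.6 and 193.2 CPM in DMSO 35 d. The falls in this paragraph are thus relative to DMSO 35 d removed, and not to the level before removal. In the F1 head, Atp5a1 fell by 0.34 ± 0.09 (adjusted p = 0.00253, but 0.14 higher on TPM), and 4 of its 5 genes were called lower. Cox5b fell by 1.15 ± 0.28 (adjusted p = 0.00195), Ndufb7 by 1.32 ± 0.38 (adjusted p = 0.00651) and Uqcrc1 by 0.80 ± 0.19 (adjusted p = 0.00126). Ndufs8, at 129.6, 112.4 and 91.8 CPM against 53.3, 50.8 and 66.0 CPM, fell by 0.97 ± 0.20 (adjusted p = 0.000314).

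The rises were led by the restricted isoform Cox6a2, at 25.7, 28.7 and 29.8 CPM against 3.84, 0.88 and 1.28 CPM (log2 fold change 3.88 ± 0.42, adjusted p = 1.1e-07). Atp5s stood at 16.6, 13.2 and 20.3 CPM against 6.63, 6.44 and 5.66 CPM (1.43 ± 0.16, adjusted p = 2.32e-07). Cox6b2 rose by 1.13 ± 0.28 (adjusted p = 0.00209), Ndufa6 by 0.96 ± 0.27 (adjusted p = 0.00506) and Cox4i2 by 0.78 ± 0.30 (adjusted p = 0.0365, with overlapping libraries). Muscle markers summed to 24.8 to 37.9 CPM in these treated libraries against 4.61 to 14.8 CPM with DMSO, with Myod1 and Myh7 at or under 3 counts in the treated group. Adipocyte markers summed to 81.4 to 188 CPM against 14.4 to 30.5 CPM (1 of 1 tested higher). Macrophage markers summed to 67.2 to 97.0 CPM against 10.1 to 12.1 CPM (2 of 5 tested higher, 0 lower). The part of these 3 marker lists in the rise of Cox6a2 was not tested. The overlapping neighbour of Cox6a2, Itgad, held 0 counts in the treated group.

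The counts of members in each direction depended on the scaling and on single libraries, while their median lay below that of all genes under each scaling. On TPM, 31 members were higher and 7 lower (36.4% and 10.7% over all genes) with a median of 0.28, while the median of all genes moved to 0.32, so that the members lay 0.04 below it on the log2 scale. With library size alone, 13 were higher and 8 lower (34% and 14.3% over all genes; median 0.12, all genes 0.29), and with TMM the members lay 0.20 below all genes. Without the 4 libraries over 0.4% ribosomal RNA, 3 rose and 2 fell (median -0.03, 14.2% and 14% over all genes), again with 1 control library left. Leaving out DMSO 35 d removed S19_705 gave 17 changed members, leaving out S21_716 gave 44 and KU60019 35 d removed S23_715 gave 21. Removal of the length trend gave 33 falls and 12 rises (median -0.31, 27.9% and 23% over all genes).

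The KU60019 effect after the 35 d removal differed from that before it for 30 members, lower for 28 and higher for 2 (16.6% and 15.8% over all genes). Atp5g1 (-1.58 ± 0.37, adjusted p = 0.00294), Atp5g3 (-1.18 ± 0.27, adjusted p = 0.00242) and Cox5b (-1.47 ± 0.40, adjusted p = 0.00793) were called in 12 of 12 fits that left out 1 library. Cox6a2 (1.69 ± 0.56, adjusted p = 0.0256) and Atp5s (0.94 ± 0.22, adjusted p = 0.00295) had the larger effect after removal. Over fits without 1 library the count ran from 8 to 41, and without the 4 libraries over 0.4% ribosomal RNA, which leaves 1 library in DMSO 35 d removed, it was 2.

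Cox6a2 had the widest range of the isoforms. Its group means, in rising order, were those of DMSO 15 d, DMSO 35 d, DMSO 35 d removed, DMSO 15 d removed, KU60019 15 d, KU60019 15 d removed, KU60019 35 d, irradiated and KU60019 35 d removed. Neighbours up to KU60019 35 d overlapped in their libraries. The irradiated libraries lay above those of KU60019 35 d, and KU60019 35 d removed lay above the irradiated ones. The partner Cox6a1 ran from 151.6 CPM to 567.8 CPM over the 27 libraries.

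Ndufa4l2 (ENSMUSG00000040280.9, chromosome 10, 127514967 to 127517154, plus strand) was called in none of the 7 group comparisons. It ranged from 457.1 CPM (DMSO 35 d removed S21_716) to 1090 CPM (KU60019 15 d removed S11_715). In all cultures oxygen was at 3%. The genes whose 9 group means of log2 CPM correlated best with it, among 12811 genes, were Fgf16 (r = 0.97), Vwa8 (0.92) and St6galnac6 (0.92). Its exons overlap those of Shmt2 on the opposite strand, which ran from 40.1 to 345.6 CPM over libraries. The closest to Cox4i2 were P2ry6 (0.97), Cish (0.96) and Cacna1g (0.96). Both sets were picked as the highest of 12811 correlations over 9 means, so they are descriptions and no evidence of shared regulation.

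Over the 7 group comparisons 9 members were called in none, 4 in 1, 32 in 2, 25 in 3, 9 in 4 and 2 in 5. The 2 called most often were Cox6a1 and Cox7a2. Those called in none included Atp5f1, Atp5mpl, Cox7a2l, Ndufa4l2, Ndufa9, Ndufs1, Sdhd and Uqcrfs1. Several of these comparisons share DMSO groups, so the calls of a gene are not independent of each other.

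**Figure D5:**
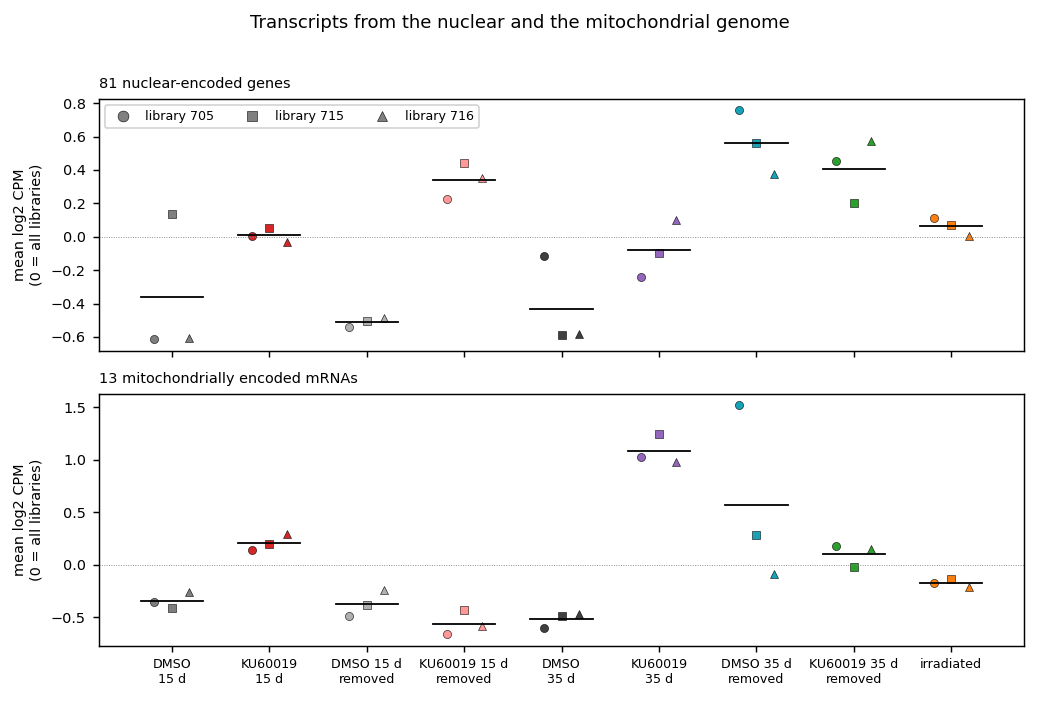
Mean log2 CPM of the 81 nuclear-encoded genes and of the 13 mitochondrially encoded mRNAs (y axes, relative to the mean over all libraries) in the 27 libraries by group. The mitochondrial mRNAs stand at 0.98 to 1.25 in KU60019 35 d, where the nuclear genes stand at -0.24 to 0.10.

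The subunits encoded in mitochondrial DNA were set beside the nuclear ones, without a test of the difference. Of their 13 mRNAs, 11 rose and 0 fell after 35 d of KU60019 (median 1.65, 9.7% and 8.4% over all genes), where 7 of 81 nuclear genes rose. mt-Co2 rose by 1.68 ± 0.18 (adjusted p = 1.28e-06), mt-Atp6 by 1.86 ± 0.22 and mt-Co1 by 1.97 ± 0.26, each a subunit of complex IV or V. The 13 mRNAs took 4.97% to 6.45% of all counts there, against 1.56% to 1.69% in DMSO 35 d. With the length trend removed it was 11 higher (median 1.42, 9.53% over all genes), and on TPM 11 higher (median 1.29, 4.04% over all genes).

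At 15 d of KU60019, 6 of 13 rose (median 0.65, 13.2% over all genes), and the 13 mRNAs took 2.50% to 2.77% of counts against 1.68% to 1.88%. With the length trend removed 2 were called higher (13.9% over all genes). After removal of KU60019 at 15 d, where 62 nuclear genes rose, 3 of 13 rose and 1 fell (24.7% and 24% over all genes). Their median was -0.29, against 0.96 for the nuclear genes. The balance turned to 1 rise and 3 falls with the length trend removed (median -0.47, 25.8% and 20.8% over all genes). mt-Nd3 rose by 1.55 ± 0.23 and mt-Co1 fell by 1.12 ± 0.25. In KU60019 35 d removed 7 fell and 1 rose (median -0.63, 24.5% and 24.4% over all genes), with mt-Co1 higher by 2.04 ± 0.26 and mt-Nd1 lower at -0.90 ± 0.20. On TPM it was 1 rise and 2 falls there (36.4% and 10.7% over all genes, median -0.05 against 0.32 for all genes). In DMSO 35 d removed 10 rose and 1 fell (median 1.14, 31.5% and 32.6% over all genes), and irradiation called 2 higher (14.1% over all genes). The DMSO 35 d removed libraries were unlike each other. The 13 mRNAs took 3.61% of counts in S19_705, the library with the most ribosomal RNA, and 1.94% and 1.77% in S20_715 and S21_716. These libraries are also the controls of KU60019 35 d removed.

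The assembly factors, which build the complexes without staying in them, moved with the subunits in part. Of 48 tested (50 listed), 24 rose and 5 fell in KU60019 15 d removed (median 0.41), among them Uqcc2 for complex III (1.99 ± 0.40) and Coa3 and Cox14 for complex IV (1.24 ± 0.21 and 1.31 ± 0.25). Cox15, needed for haem A synthesis, fell by 1.19 ± 0.22. On TPM, relative to a moved median of all genes, it was 10 rises and 13 falls. Over all genes 24.7% rose and 24% fell there, and 9.88% and 51.1% on TPM. In DMSO 35 d removed 27 rose and 8 fell (median 0.41, 31.5% and 32.6% over all genes), with Coa7 at 2.17 ± 0.24 and Cmc2 at 2.42 ± 0.30. On TPM 9 rose and 24 fell (13.1% and 60.1% over all genes). In KU60019 35 d removed 12 of 48 rose and 8 fell, beside 24.4% and 24.5% over all genes. On TPM it was 27 and 2, beside 36.4% and 10.7% over all genes. Ndufaf3 (1.50 ± 0.16) and Foxred1 (1.10 ± 0.12) of complex I assembly and Surf1 (1.12 ± 0.13) of complex IV assembly rose there, and Coa7 fell by 1.56 ± 0.24. Irradiation called 13 higher and 2 lower (14.1% and 16.8% over all genes). KU60019 called 4 higher at 15 d (13.2% over all genes) and 5 higher at 35 d (9.7% over all genes), the latter led by Surf1 (0.69 ± 0.13).

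Among 7 genes of the mobile electron carriers and their partners, Cycs, which encodes somatic cytochrome c, changed in each of 6 comparisons. It rose by 1.13 ± 0.12 with KU60019 at 15 d (adjusted p = 9.39e-07), 0.41 ± 0.12 at 35 d, 0.89 ± 0.12 after irradiation, 0.62 ± 0.12 in KU60019 15 d removed and 1.75 ± 0.13 in DMSO 35 d removed. In KU60019 35 d removed it fell by 0.56 ± 0.12. Cyc1, the haem subunit of complex III, rose at 15 d of KU60019 (0.71 ± 0.16) and after irradiation (0.73 ± 0.16).

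Of 24 regulators of mitochondrial biogenesis and of oxygen response, 9 fell and 1 rose in KU60019 15 d removed (24% and 24.7% over all genes). Their median was -0.25, opposite in sign to the chain's 0.96. With the length trend removed the list had 3 falls and 5 rises (20.8% and 25.8% over all genes). Hif1a, the oxygen-regulated subunit of HIF-1, fell by 1.34 ± 0.26. Nrf1, whose motif was searched above, fell by 0.41 ± 0.10 at 35 d of KU60019 and by 0.77 ± 0.10 in KU60019 35 d removed, and rose by 0.66 ± 0.10 in DMSO 35 d removed. Ppargc1a, the coactivator PGC-1alpha, rose by 4.58 ± 0.77 in KU60019 35 d removed and by 3.21 ± 0.59 after irradiation. Esrrg, a nuclear receptor of oxidative tissues, rose by 6.20 ± 1.22 at 35 d of KU60019. The standard errors of Ppargc1a and Esrrg are the widest given for these regulators, so the sizes of their changes are uncertain.

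The citrate cycle feeds NADH and succinate to the chain. Of its 14 genes, 2 rose and 3 fell in KU60019 15 d removed (4 and 1 with the length trend removed) and edgeR called 0 at 35 d of KU60019, with 0 higher and 3 lower at an unadjusted p under 0.05 and 1 of each by DESeq2. In DMSO 35 d removed 6 rose and 1 fell, with the malate dehydrogenase gene Mdh2 at 1.54 ± 0.16 and the citrate synthase gene Cs at 0.42 ± 0.09. In KU60019 35 d removed 6 fell and 0 rose, with Mdh2 at -1.01 ± 0.16 and Cs at -0.55 ± 0.09. Over all genes 24.7% rose and 24% fell in KU60019 15 d removed, and 9.7% and 8.4% at 35 d of KU60019. In DMSO 35 d removed it was 31.5% and 32.6%, and in KU60019 35 d removed 24.4% and 24.5%. On TPM the citrate cycle counts were 1 rise and 11 falls in DMSO 35 d removed (13.1% and 60.1% over all genes). They were 3 rises and 1 fall in KU60019 35 d removed (36.4% and 10.7% over all genes). The medians of all genes were -0.67 and 0.32. Relative to all genes the list's median on TPM was 0.06 higher in DMSO 35 d removed and 0.01 lower in KU60019 35 d removed, against 0.27 higher and 0.19 lower with TMM. At 15 d of KU60019 Idh2, the mitochondrial NADP-dependent isocitrate dehydrogenase, fell by 1.84 ± 0.25.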

How the data were processed

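RNA of each culture was sequenced after TruSeq library preparation, per the labels' protocols. The authors deposited raw counts per gene, for which the submitters' processing notes name featureCounts and mm10. The authors also deposited TPM values of the same libraries. No aligner, annotation release or strand setting is given in the sources used here, so overlapping genes and subunits with processed pseudogenes are uncertain. Symbols, lengths and positions came from GENCODE M21 (GRCm38) for 48058 of 48440 gene IDs.

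The members and gene lists were chosen with earlier results of these data known. Groups came from the sample titles. The test was that of edgeR 4.0.16 in R 4.3.3 (TMM, filterByExpr with a minimum count of 10, quasi-likelihood F-test) in 1 model of all 27 libraries with 18 residual degrees of freedom, and p-values were adjusted over 18684 genes by Benjamini-Hochberg. Adjusted p-values without a named tool are edgeR's, and a standard error is the size of the log2 fold change over the root of its F statistic. Levels are CPM on TMM-scaled libraries, and mean log2 values use a prior of 0.5 CPM.

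Alternatives were DESeq2 1.42.0, limma 3.58.1 on log2(TPM + 1) with a minimum of 1 TPM in 3 libraries, other scalings, no filter, compared groups only, protein-coding genes alone, each library left out, a replicate block, libraries over 0.4% ribosomal RNA left out, and removal of each library's length trend (lowess, span 0.3). Removal with lengths implied by TPM, and leaving out DMSO 15 d S2_715 with DMSO 35 d S13_705, were chosen with the data in view. The fit was tested on simulated data. Genes named are core subunits, isoforms and their partners, up to 6 rises and 6 falls per comparison and up to 4 genes per list, and not every member is reported by name here. Permutation tests used scipy 1.17.1.

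For KU60019 at 15 d, libraries with the same end number had correlated deviations from their group means (r = 0.44, 0.30 and 0.45), which met the rule for pairing (every r over 0.1), and not in every pair elsewhere. All replicate pairs differed by more than sampling noise, with a chi-square per gene of at least 7.18.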

Additional observations from a re-analysis of the deposited data

Results flagged for a closer look

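For 33 results of the members named by the rule for named genes, the KU60019 effect differed between 2 conditions by edgeR's test of that difference (adjusted p under 0.05), given here as differences of log2 fold changes. Between 35 d and 15 d of treatment these were Atp5b (-0.75) and Atp5s (0.99).

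Between the effect after removal of the 15 d treatment and the effect before it, the effect was larger for Atp5c1 (0.81), Atp5e (1.76), Atp5g2 (0.90), Cox4i1 (1.08), Cox6c (1.45), Cox7c (0.94), Ndufa3 (1.30), Ndufa5 (1.77), Ndufs6 (1.50) and Uqcrh (1.20). It was smaller for Atp5b (-0.79) and Cox6a2 (-1.57).

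For the 35 d treatment the effect was higher after removal for Atp5s (0.94) and Cox6a2 (1.69). It was lower for the ATP synthase genes Atp5c1 (-0.72), Atp5g1 (-1.58), Atp5g2 (-0.99), Atp5g3 (-1.18) and Atp5l (-1.55). Lower complex IV genes were Cox4i1 (-1.17), Cox5b (-1.47), Cox6c (-1.19), Cox7a1 (-1.58), Cox7a2 (-0.60) and Cox7c (-1.06). Lower genes of complexes I and III were Ndufa2 (-1.81), Ndufb7 (-1.57), Ndufs8 (-0.80), Ndufv2 (-0.79), Uqcr11 (-1.58) and Uqcrc1 (-0.80). The 3 DMSO libraries of the 35 d removal differed from the other DMSO libraries in proliferation markers, and 2 of them were over 0.4% ribosomal RNA, whose part in these differences was not tested.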

How the results depend on the processing

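Of the member results under the planned and added settings that leave all libraries of a group in place or drop more than 1, 4806 single-gene values kept their direction and side of the threshold, 266 lost the call, 147 gained it and 33 changed sign. The cause was not tested for any of them. Numbers of members changed over fits that left out 1 library ran from 3 to 48 (KU60019 15 d), 1 to 17 (KU60019 35 d), 60 to 63 (KU60019 15 d removed), 17 to 44 (KU60019 35 d removed), 5 to 51 (irradiation), 0 to 0 (DMSO 35 d against 15 d) and 59 to 71 (DMSO 35 d removed). For the differences they ran from 1 to 3 (35 d minus 15 d), 3 to 35 (removal, 15 d) and 8 to 41 (removal, 35 d). No share over all genes stands beside these counts or most of those below, so they do not compare the members with all genes.

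With the compared groups only in the fit, 5 members changed for KU60019 15 d, 20 for KU60019 35 d, 9 for KU60019 35 d removed, 11 for the removal difference at 15 d and 13 for that at 35 d. With library size alone it was 21 for KU60019 35 d removed, 9 for the removal difference at 35 d and 1 for the difference of 35 d minus 15 d. With no filter on low counts it was 9, 11 and 1 for the removal differences at 15 d and 35 d and the difference of 35 d minus 15 d. On TPM the removal differences counted 10 (15 d) and 19 (35 d), the latter with 18 higher and 1 lower (47.2% and 4.94% over all genes). For KU60019 35 d it was 12 with DESeq2, 11 with protein-coding genes alone, 3 with the length trend removed, 3 with lengths implied by TPM and 3 with the block and the length trend together.

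Without DMSO 15 d S2_715 and DMSO 35 d S13_705, 52 members changed for KU60019 15 d, 29 for KU60019 35 d, 53 for irradiation, 5 for the removal difference at 15 d and 49 for that at 35 d. Without libraries over 0.4% ribosomal RNA, which leaves DMSO 35 d removed with 1 library, it was 5 for KU60019 35 d removed and 2 for the removal difference at 35 d. With the replicate number as a block, KU60019 15 d kept a count of 10, the removal difference at 15 d counted 12 and the difference of 35 d minus 15 d counted 1.

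Signs changed mostly on TPM, where the median of all genes itself moved. These were Ndufv1 (-0.26) for KU60019 35 d, and Atp5a1 (-0.55), Cox4i2 (-0.59) and Sdhc (-0.13) for KU60019 15 d removed. For KU60019 35 d removed they were the median (0.28), Atp5a1 (0.14), Atp5b (0.0020), Cox8a (0.36), Ndufs7 (0.50), Sdha (0.24) and Sdhc (0.44). For DMSO 35 d removed they were Atp5a1 (-0.57), Cox4i2 (-0.81), Cox5a (-0.26), Cox6b2 (-0.49), Ndufs3 (-0.32), Sdha (-0.78), Sdhb (-0.10), Sdhc (-0.47), Sdhd (-0.79) and Uqcrfs1 (-0.65). For the removal difference at 35 d they were the median (0.21), Atp5a1 (0.59), Atp5c1 (0.12), Cox7a2 (0.21), Ndufa4l2 (0.79), Ndufs3 (0.68), Ndufs8 (0.031), Ndufv2 (0.049), Sdha (0.70), Sdhb (0.61), Sdhc (0.70) and Uqcrc1 (0.093). With library size alone the median (0.12) and Sdha (0.076) turned for KU60019 35 d removed, and without libraries over 0.4% ribosomal RNA Ndufa2 (0.18). The median for DMSO 35 d against 15 d ran from -0.31 to 0.19 over fits without 1 library, turned without DMSO 15 d S2_715 (0.19) and was 0.0039 without that library and DMSO 35 d S13_705. Depth limits Cox7a1 and Cox6a2, at about 1 CPM in several groups.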
